A study of Homo sapiens with 4 samples.

Results

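The genes described here encode the machinery that copies DNA, together with enzymes that supply its deoxynucleotides. They are 48 genes listed by symbol for their role in replication, a list drawn up with earlier results of these data known, out of 22860 gene symbols in the count tables, of which 13253 had enough counts to be tested. All 48 were tested. The measurements are RNA sequencing counts from PC-3M-luc cells, a metastatic subline of the androgen-independent PC-3 prostate carcinoma line that carries luciferase. In 2 libraries, LSD1 (gene KDM1A), a histone lysine demethylase, was knocked down by RNA interference (RNAi). The other 2 libraries came from cells given control RNAi. Both groups were transfected with Dharmafect 2, were harvested 72 h later and were at passages 17 to 20. The design text of the series speaks of knockout cells, whereas every sample label speaks of RNAi, so the groups are called LSD1 knockdown and control RNAi. The labels call the libraries biological replicates. All come from a single line, so the p-values measure the spread between these libraries.

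Replication begins when the origin recognition complex (ORC), with CDC6 and CDT1, loads the MCM2-7 helicase ring onto DNA in G1. CDC45 and the GINS complex then turn that ring into an active helicase, polymerase alpha-primase starts each strand, and polymerases delta and epsilon extend it on the PCNA ring, which the RFC complex loads. RPA coats the single strands that are exposed, and ribonucleotide reductase, thymidylate synthase, thymidine kinase and dUTPase set the supply of deoxynucleotides. Many of these genes are known targets of E2F transcription factors, which raise their transcription as cells enter S phase.

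KDM1A stood at 17.9 and 18.1 CPM (read counts scaled to library size) in the LSD1 knockdown libraries, against 235 and 238 CPM in the control RNAi libraries, so the knockdown libraries kept 7.60% of the control level (edgeR adjusted p = 2.84e-24). Gene counts summed to 12041133 and 12831884 in the knockdown libraries and to 12474655 and 12411128 in the control libraries. At these depths 3 counts equal 0.234 to 0.249 CPM, and the lowest count of any replication gene in any library was 91. The epithelial line markers KRT8, KRT18 and EPCAM and the mesenchymal marker VIM had from 752 to 13864 counts in each library. Of these KRT8 (log2 fold change, knockdown over control, 0.47) and EPCAM (0.50) rose, VIM fell (-0.33) and KRT18 did not pass (-0.12). The luminal prostate genes KLK2 and KLK3 had 0 counts in every library. Of 12 markers of other cell types 8 had counts, which summed to 1245 and 1393 in knockdown libraries and to 1706 and 1700 in control libraries. PTPRC, CD3E, CDH5 and HBB were at 0 everywhere. Of the 5 that could be tested, CD68 (-0.92) and PECAM1 (-0.74) fell, LYZ (2.24) and COL1A2 (0.61) rose and COL1A1 (-0.11) did not pass. CD68 had 547 and 605 counts in knockdown libraries and 1077 and 1045 in control libraries, and LYZ had 17 and 13 in knockdown libraries and 4 and 2 in control libraries. The part of these markers in the results was not tested.

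In LSD1 knockdown cells 34 of the 48 replication genes fell and RPA1 and RFC1 (2 genes) rose, while 12 missed the threshold (edgeR quasi-likelihood test, Benjamini-Hochberg adjusted over all tested genes at 0.05). The share that fell was 70.8% of the replication genes, against 17.9% of all tested genes, and the share that rose was 4.17%, against 18.2%. Over all tested genes 36.1% passed in either direction. The median log2 fold change, knockdown over control, was -0.47 over the 48 genes and 0.00 over all tested genes. For 37 genes both knockdown libraries lay below both control libraries, and for 3 they lay above; among all tested genes these shares were 33.5% and 33.7%. The falls were moderate: 16 of the 48 genes were called with a fall of at least 1.5-fold, which 6.0% of all tested genes showed, and only GINS4 and PRIM2 fell by at least 2-fold. The 48 genes together took 2569 and 2472 CPM in knockdown libraries, against 3223 and 3202 CPM in control libraries. In bulk RNA, fewer cells in S phase and less of each transcript per cell cannot be told apart. Between replicates the genes differed by a median of 0.10 log2 units in knockdown cells and 0.14 in control cells.

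**Figure D1:**
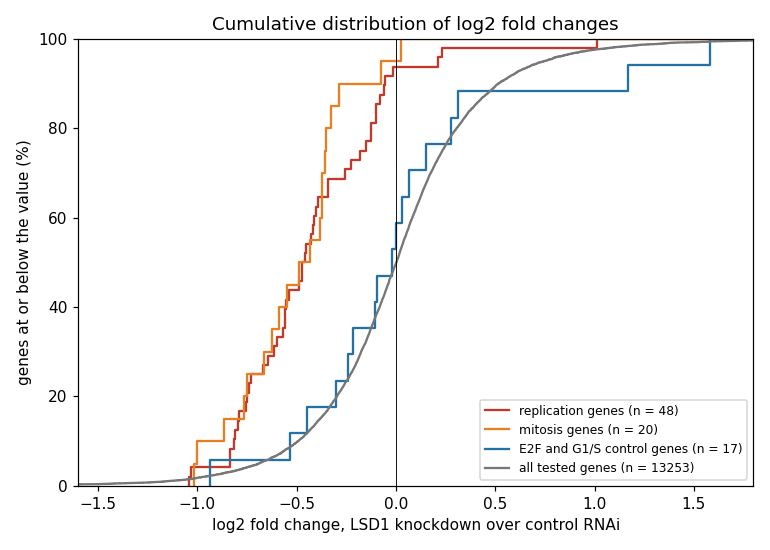
Cumulative share of genes (y axis, percent) at or below each log2 fold change, LSD1 knockdown over control RNAi (x axis, which leaves out the most extreme genes), for the 48 replication genes, 20 mitosis genes, 17 E2F and G1/S control genes and all 13253 tested genes. The replication curve lies left of that of all tested genes for most of its length, with a median of -0.47, and the E2F and G1/S curve runs near that of all tested genes except at its ends.

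Counted by part of the replisome, the share that passed ranged widely. Every gene passed as lower in 4 groups, against 17.9% of all tested genes. These were helicase loading with 3 genes, polymerase alpha-primase with 4, the clamp and Okazaki fragment genes with 3, and the deoxynucleotide genes with 5. In the polymerase alpha-primase group, POLA1 and PRIM1 lost their calls with no normalization factor, no filter, summed rows or the DESeq2 test. In polymerase delta and polymerase epsilon 1 of 3 listed genes passed in each. POLD4 and POLE4, further subunits of these polymerases, are not in this list. POLD4 fell (-0.70, edgeR adjusted p = 1.54e-06) and POLE4 did not pass (0.05). Of the 12 listed genes that did not pass, 11 had a 95% interval that excludes a fall of 1.5-fold, the exception being GINS1. No test of a difference between groups of genes was run.

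**Figure D2:**
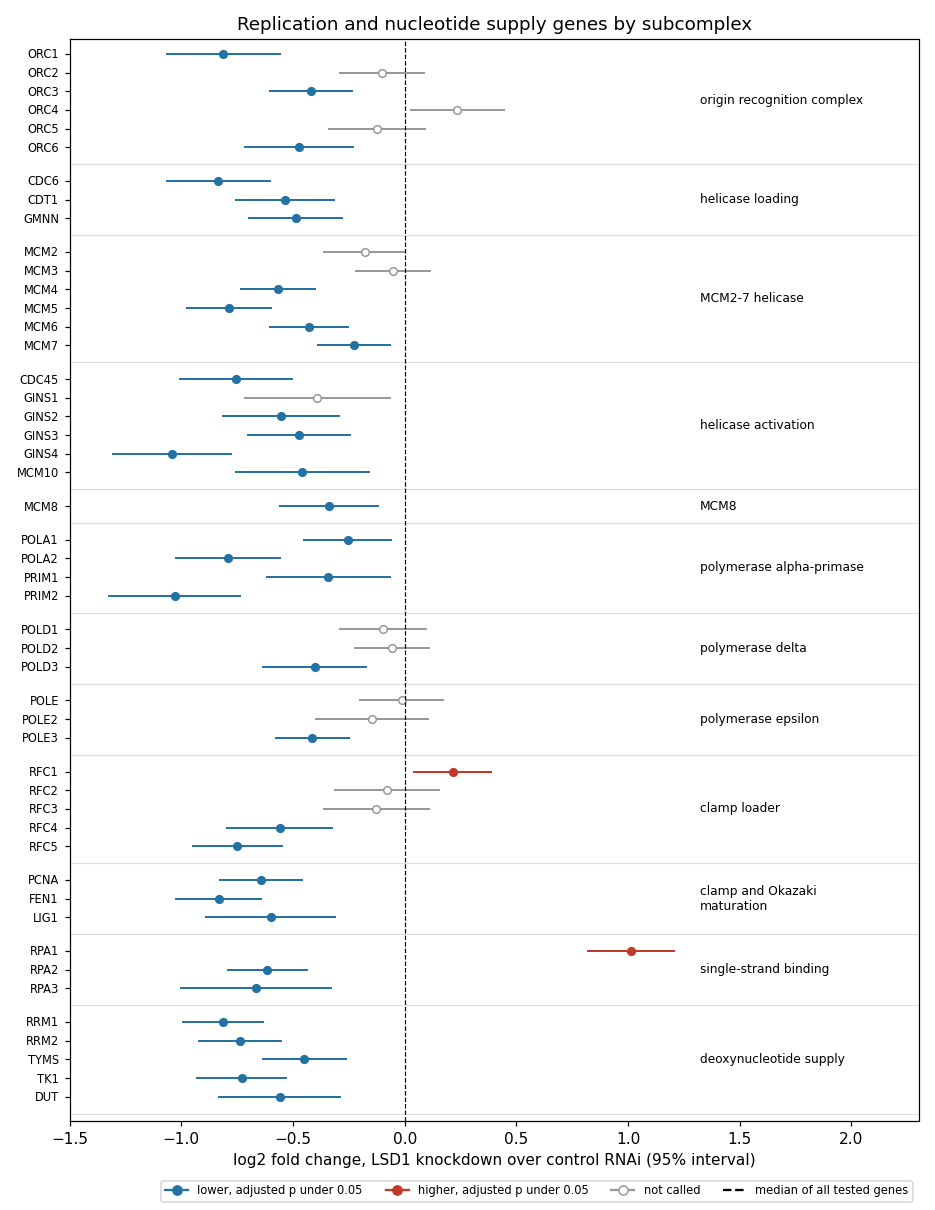
Log2 fold change, LSD1 knockdown over control RNAi, with its 95% interval from the edgeR fit, for each of the 48 genes grouped by subcomplex (2 libraries a group). Filled points passed the adjusted threshold of 0.05 and open points did not; RPA1 at 1.01 lies alone at the right, and the dashed line is the median of all tested genes.

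Most of these genes fell, and the DNA just upstream of the whole list was read for 2 known promoter elements of cell-cycle genes. The windows run from 250 bases before to 50 bases after the start of transcription, from the RefSeq promoter table on GRCh38.p14, where 42 of the 48 genes had an entry. The first listed start was used for the 11 genes with several. The E2F letters searched were TTTCCCGC, TTTCGCGC, TTTGCCGC and TTTGGCGC, on both strands. The letters TTTGGCGC and the reverse complement of TTTCGCGC can overlap in a single stretch, which then counts as a match of each. At least 1 match lay in 19 of 42 replication promoters (45.2%), against 569 of 10602 promoters of tested genes (5.37%) and 908 of all 27305 promoters in the table (3.33%). The letters were found in 13 of 28 genes that fell (46.4%), in 6 of 12 that did not pass and in 0 of the 2 that rose. Over all tested genes with a promoter entry, they lay in 6.64% of those that fell, 5.2% of those that did not pass and 4.67% of those that rose. The letters CCAAT, on either strand, lay in 23 of 42 replication promoters (54.8%), against 37.0% of promoters of tested genes. A match describes the letters in the window and says nothing of binding.

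Promoters of 5 genes are shown because they span what the genes did: MCM6, PCNA and RRM2 fell, MCM3 did not pass the test and RPA1 rose. Capitals mark the E2F letters and CCAAT or its reverse complement ATTGG. Each is read 5′ to 3′ on the strand of its gene. MCM6 lies at chr2:135876394-135876693 on the minus strand, PCNA at chr20:5126573-5126872 on the minus strand, RRM2 at chr2:10122489-10122788 on the plus strand, MCM3 at chr6:52284693-52284992 on the minus strand and RPA1 at chr17:1829755-1830054 on the plus strand.
MCM6: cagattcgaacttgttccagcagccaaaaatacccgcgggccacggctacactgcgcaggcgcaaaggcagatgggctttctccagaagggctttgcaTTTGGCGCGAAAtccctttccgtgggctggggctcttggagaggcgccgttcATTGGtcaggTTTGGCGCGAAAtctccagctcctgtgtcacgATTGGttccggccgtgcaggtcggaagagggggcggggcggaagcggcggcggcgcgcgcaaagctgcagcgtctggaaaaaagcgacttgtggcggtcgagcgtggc
PCNA: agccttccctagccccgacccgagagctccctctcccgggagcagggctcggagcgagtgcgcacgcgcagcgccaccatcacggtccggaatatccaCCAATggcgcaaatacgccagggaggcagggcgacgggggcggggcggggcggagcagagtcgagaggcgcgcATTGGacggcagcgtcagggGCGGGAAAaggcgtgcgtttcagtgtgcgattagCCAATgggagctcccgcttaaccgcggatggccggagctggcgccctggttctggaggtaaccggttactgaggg
RRM2: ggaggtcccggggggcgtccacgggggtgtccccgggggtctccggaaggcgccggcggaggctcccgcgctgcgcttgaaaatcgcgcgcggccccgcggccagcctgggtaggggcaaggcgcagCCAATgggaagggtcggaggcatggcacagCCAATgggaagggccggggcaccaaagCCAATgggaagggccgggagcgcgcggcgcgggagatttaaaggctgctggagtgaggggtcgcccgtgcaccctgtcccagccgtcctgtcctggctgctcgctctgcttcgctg
MCM3: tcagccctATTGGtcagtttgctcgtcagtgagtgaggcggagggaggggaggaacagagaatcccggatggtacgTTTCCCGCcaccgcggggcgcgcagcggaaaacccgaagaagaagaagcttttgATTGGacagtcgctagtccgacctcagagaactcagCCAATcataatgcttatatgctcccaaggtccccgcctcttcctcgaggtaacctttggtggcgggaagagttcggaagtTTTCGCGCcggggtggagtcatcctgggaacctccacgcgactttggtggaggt
RPA1: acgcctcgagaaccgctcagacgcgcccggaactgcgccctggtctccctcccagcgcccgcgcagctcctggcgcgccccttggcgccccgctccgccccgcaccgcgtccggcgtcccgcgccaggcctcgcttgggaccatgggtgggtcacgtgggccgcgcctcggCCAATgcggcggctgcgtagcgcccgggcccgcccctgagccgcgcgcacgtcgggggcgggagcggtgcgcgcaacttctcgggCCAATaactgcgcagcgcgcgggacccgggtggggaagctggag
MCM6 held 4 E2F matches, as 2 overlapping pairs that begin 152 and 90 bases before the start. PCNA held 1 and MCM3 held 2. The RRM2 window held none of the E2F letters and 3 CCAAT matches, and the RPA1 window held none of the E2F letters and 2 CCAAT matches. Among the windows read, these letters lay both in genes that fell and in genes that did not pass. Whether the shares of these groups differ was not tested. MCM4, MCM5, GINS4, POLD3, RPA2 and RPA3, which all fell, had no entry and are left out.

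**Figure D3:**
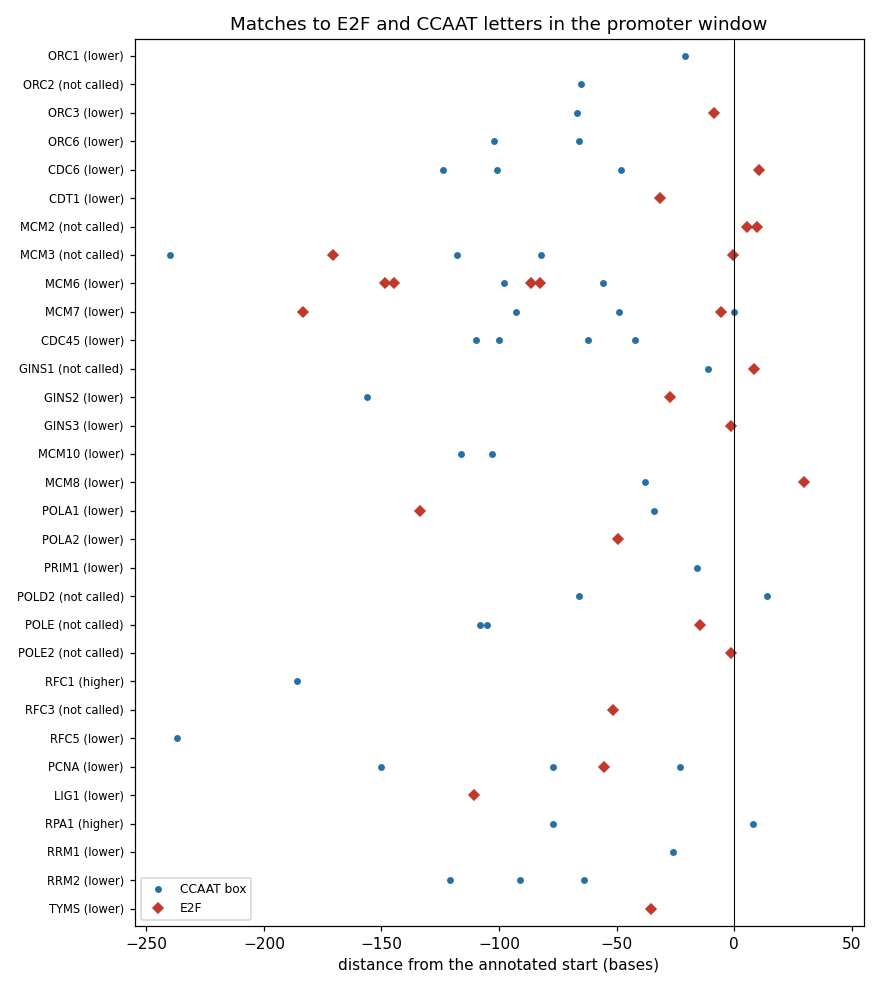
Positions of the E2F letters and of CCAAT, on either strand, in the promoter windows of the replication genes with at least 1 match, by distance from the start of transcription in bases (x axis), 1 gene a row. E2F matches occur in 19 of 42 windows, in genes that fell and in genes that did not pass, and in neither of the 2 that rose.

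The origin recognition complex marks the sites where helicases are loaded, and its 6 genes did not move as a unit. ORC1, the subunit whose level rises and falls with the cell cycle in human cells, had 16.2 and 14.2 CPM in knockdown libraries, against 28.4 and 24.9 CPM in control libraries (log2 fold change -0.81, SE 0.12, edgeR adjusted p = 3.91e-06). ORC6 had 18.2 and 17.8 CPM in knockdown libraries, against 26.3 and 23.7 CPM in control libraries (-0.48, SE 0.12, edgeR adjusted p = 0.00192). In both genes every knockdown library was below every control library. ORC3 also fell, with a log2 fold change of -0.42. ORC2 and ORC5, at -0.10 and -0.12, overlapped between groups and did not pass. ORC4 stood at 36.8 and 35.1 CPM in knockdown libraries, against 30.7 and 30.5 CPM in control libraries, a log2 fold change of 0.23 that missed the threshold (edgeR adjusted p = 0.0717). It passed with no normalization factor (edgeR adjusted p = 0.041) and with isoform rows summed (edgeR adjusted p = 0.0247). On the opposite strand, ORC4 shares 157 exon bases with MBD5, which rose (0.71), and 430 with ACVR2A, which did not pass (0.16). The ORC1:ORC4 ratio of CPM was 0.440 and 0.405 in knockdown libraries, against 0.927 and 0.819 in control libraries.

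The 3 genes of helicase loading all fell. CDC6, the ATPase that loads the helicase with ORC, had 28.6 and 22.0 CPM in knockdown libraries, against 48.2 and 41.8 CPM in control libraries (-0.83, SE 0.11, edgeR adjusted p = 6.39e-07). CDT1, which brings the helicase to ORC, had 23.0 and 22.6 CPM in knockdown libraries, against 32.2 and 33.9 CPM in control libraries (-0.54, SE 0.11, edgeR adjusted p = 0.000197). Geminin (GMNN), the inhibitor of CDT1, fell by a similar amount, with a log2 fold change of -0.49. The CDT1:GMNN ratio, 0.757 and 0.798 in knockdown libraries against 0.769 and 0.839 in control libraries, overlapped between the groups.

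The MCM2-7 ring holds 1 copy of each of 6 subunits, and their transcripts fell by unequal amounts. MCM5 had 46.4 and 50.1 CPM in knockdown libraries, against 79.2 and 87.4 CPM in control libraries (-0.79, SE 0.09, edgeR adjusted p = 3.81e-08). MCM4 had 130.6 and 124.7 CPM in knockdown libraries, against 196.8 and 181.4 CPM in control libraries (-0.57, SE 0.08, edgeR adjusted p = 1.76e-06). MCM3 had 159.2 and 149.4 CPM in knockdown libraries, against 160.8 and 159.4 CPM in control libraries (-0.05, 95% interval -0.22 to 0.11). MCM5 and MCM4 were thus well separated between groups, whereas the highest MCM3 value in knockdown cells nearly touched the lowest in control cells. MCM6 fell with a log2 fold change of -0.43 and MCM7 with one of -0.23. MCM7 lost its call with no normalization factor (-0.19, edgeR adjusted p = 0.0545). The MCM7 call was also lost when any single library was left out, with log2 fold changes of -0.24 to -0.22. MCM2, at -0.18, did not pass, and passed only without the second knockdown library (-0.29, edgeR adjusted p = 0.0287).

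Per kilobase of transcript, with lengths from GENCODE v29, MCM5 was the lowest of the 6 subunits in both groups. It averaged 13.7 ± 0.733 CPM per kb in knockdown cells and 23.6 ± 1.64 CPM per kb in control cells (SD, n = 2 each). MCM7 was the highest, at 66.8 ± 0.630 CPM per kb in knockdown cells and 78.2 ± 0.234 CPM per kb in control cells. MCM3 and MCM4 stood close together in control cells, at 49.9 ± 0.294 and 45.2 ± 2.59 CPM per kb, while in knockdown cells MCM3 averaged 48.1 ± 2.17 and MCM4 30.5 ± 0.999 CPM per kb. Of the summed per-kilobase level of the 6 subunits, MCM3 took 24.4% and 22.9% in knockdown libraries, against 19.8% in both control libraries. MCM5 took 6.45% and 6.96% in knockdown libraries, against 8.87% and 9.86% in control libraries. The lengths come from another annotation than the counts, so levels between genes are approximate, and the comparison between groups of the same gene does not depend on them.

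CDC45 and the 4 GINS subunits join the ring to form the working helicase, and MCM10 acts as it fires. GINS4 had 12.9 and 12.3 CPM in knockdown libraries, against 28.2 and 23.5 CPM in control libraries (-1.04, SE 0.13, edgeR adjusted p = 1.14e-07), the largest fall among the 48 genes. CDC45 had 16.2 and 15.2 CPM in knockdown libraries, against 28.7 and 24.4 CPM in control libraries (-0.76, SE 0.12, edgeR adjusted p = 1.1e-05). In both, the knockdown libraries differed less from each other than the control libraries did. GINS2, GINS3 and MCM10 fell with log2 fold changes of -0.55, -0.47 and -0.46. GINS1, at -0.39, lay lower in both knockdown libraries but narrowly missed the threshold (edgeR adjusted p = 0.0537). MCM10 lost its call with the DESeq2 test (adjusted p = 0.11). The MCM10 call was also lost without the second knockdown library (-0.44) or without the second control library (-0.42). MCM8, a relative of the ring subunits that works mainly in recombination, had 25.7 and 25.2 CPM in knockdown libraries, against 33.7 and 30.8 CPM in control libraries. That fall, at -0.34 (edgeR adjusted p = 0.0128), lost its call with the DESeq2 test (adjusted p = 0.0812). The MCM8 call was also lost without the second knockdown library (-0.33) or without the first control library (-0.28).

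Polymerase alpha-primase lays the RNA-DNA primers, and its accessory and regulatory subunits fell most. The large primase subunit PRIM2 had 8.76 and 8.43 CPM in knockdown libraries, against 16.6 and 18.5 CPM in control libraries (-1.03, SE 0.14, edgeR adjusted p = 1.02e-06). The accessory subunit POLA2 had 24.8 and 19.8 CPM in knockdown libraries, against 40.6 and 36.6 CPM in control libraries (-0.79, SE 0.11, edgeR adjusted p = 1.58e-06). The subunits that carry the active sites moved less: the polymerase POLA1 at -0.26 (edgeR adjusted p = 0.0344) and the primase PRIM1 at -0.34 (edgeR adjusted p = 0.0456). Both calls were lost in several alternatives. With all libraries kept, neither passed with no normalization factor, with no filter, with summed rows or with the DESeq2 test (adjusted p 0.0547 to 0.13 for POLA1 and 0.0745 to 0.2 for PRIM1). POLA1 was lost without the second knockdown library or either control library (adjusted p 0.108 to 0.303). PRIM1 was lost without the second knockdown library (-0.12, adjusted p = 0.607) or without the first control library (adjusted p = 0.14). The PRIM2:PRIM1 ratio was 0.446 and 0.592 in knockdown libraries, against 0.752 and 0.893 in control libraries, with no overlap. PRIM1 shares 33 exon bases with NACA on the same strand, which did not pass (0.04). NACA had more reads than PRIM1 (a mean count of 14040 against 237.5), and the part of this overlap in the PRIM1 values was not tested.

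Among the genes of the replicative polymerases, the catalytic subunits did not pass in either direction. The catalytic subunit of polymerase delta, POLD1, had 55.5 and 64.8 CPM in knockdown libraries, against 61.4 and 67.5 CPM in control libraries (-0.10, 95% interval -0.29 to 0.09). The catalytic subunit of polymerase epsilon, POLE, had 72.3 and 80.5 CPM in knockdown libraries, against 72.0 and 82.4 CPM in control libraries (-0.01, 95% interval -0.20 to 0.17). For both the groups overlapped. POLE2, the second subunit of polymerase epsilon, overlapped as well, with 21.1 and 18.1 CPM in knockdown libraries, against 20.6 and 22.8 CPM in control libraries (-0.15, SE 0.12, edgeR adjusted p = 0.371), and so did POLD2 (-0.06). The accessory subunits POLD3 and POLE3 fell: POLD3 had 21.8 and 20.4 CPM in knockdown libraries, against 28.1 and 27.7 CPM in control libraries (-0.40, SE 0.11, edgeR adjusted p = 0.00522). POLE3, a histone-fold subunit, had 167.0 and 155.9 CPM in knockdown libraries, against 211.6 and 218.5 CPM in control libraries (-0.41, SE 0.08, edgeR adjusted p = 0.000135). POLD3 missed the threshold without the second knockdown library (adjusted p = 0.052).

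The 5 RFC subunits load PCNA, and they went in different directions. RFC5 had 39.5 and 36.5 CPM in knockdown libraries, against 59.4 and 68.4 CPM in control libraries (-0.75, SE 0.10, edgeR adjusted p = 2.71e-07). RFC4 had 26.2 and 21.3 CPM in knockdown libraries, against 37.4 and 32.5 CPM in control libraries (-0.56, SE 0.12, edgeR adjusted p = 0.000242). The large subunit RFC1 was higher, with 101.3 and 101.1 CPM in knockdown libraries, against 90.3 and 84.1 CPM in control libraries (0.21, SE 0.09, edgeR adjusted p = 0.048). The groups did not overlap for any of these 3 genes, but RFC1 lost its call when any single library was left out (adjusted p 0.0715 to 0.298). RFC2 and RFC3, at -0.08 and -0.13, overlapped between groups and did not pass. The exons of RFC5 share 186 bases with those of WSB2 on the opposite strand, which rose with a log2 fold change of 1.10. WSB2 had more reads than RFC5 (a mean count of 1286 against 631). The use of strand in the counting is not given in the sources used here, so reads from such overlaps cannot be assigned.

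PCNA, the sliding clamp, and the enzymes that finish Okazaki fragments all fell. The flap endonuclease FEN1 had 44.6 and 42.4 CPM in knockdown libraries, against 73.4 and 81.7 CPM in control libraries (-0.83, SE 0.09, edgeR adjusted p = 1.55e-08). PCNA had 63.9 and 57.7 CPM in knockdown libraries, against 99.5 and 90.1 CPM in control libraries (-0.64, SE 0.09, edgeR adjusted p = 1.09e-06). DNA ligase I (LIG1), which seals the fragments, fell with a log2 fold change of -0.60. None of the 3 overlapped between the groups. FEN1 shares 49 exon bases with FADS2 on the same strand, which rose (0.53). FADS2 had more reads than FEN1 (a mean count of 3231 against 749.5). On the opposite strand, FEN1 shares 166 exon bases with TMEM258, which fell (-0.27).

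RPA binds single-stranded DNA as a trimer of RPA1, RPA2 and RPA3, and its large subunit went against the others. RPA1 had 115.2 and 108.6 CPM in knockdown libraries, against 49.9 and 61.1 CPM in control libraries (1.01, SE 0.09, edgeR adjusted p = 3.53e-10). It was the only one of the 48 genes to rise by 2-fold, to 201.6% of the control level. RPA2 had 92.3 and 80.5 CPM in knockdown libraries, against 129.2 and 135.3 CPM in control libraries (-0.62, SE 0.09, edgeR adjusted p = 1.17e-06). RPA3 had 9.99 and 7.03 CPM in knockdown libraries, against 14.6 and 12.4 CPM in control libraries (-0.67, SE 0.16, edgeR adjusted p = 0.00168). None of the 3 overlapped between the groups, and the 95% interval of RPA1, 0.82 to 1.20, lay wholly above those of RPA2, -0.79 to -0.44, and RPA3, -1.001 to -0.33. The call of RPA1 held with any single library left out, whereas RPA3 missed the threshold without the second knockdown library (-0.43, adjusted p = 0.0794).

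The opposite moves changed the ratios within RPA while the summed level overlapped between groups. RPA1:RPA2 was 1.25 and 1.35 in knockdown libraries, against 0.386 and 0.451 in control libraries. RPA1:RPA3 was 11.5 and 15.4 in knockdown libraries, against 3.43 and 4.95 in control libraries. RPA2:RPA3, at 9.24 and 11.4 in knockdown libraries and 8.87 and 10.96 in control libraries, overlapped. The 3 genes together took 217.4 and 196.1 CPM in knockdown libraries and 193.7 and 208.8 CPM in control libraries, with overlap. RPA1 shares 156 exon bases with SMYD4 on the opposite strand, which had fewer reads than RPA1 (a mean count of 326 against 1044) and fell (-0.32).

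The 5 deoxynucleotide genes all fell, and their summed level was 297.9 and 272.1 CPM in knockdown libraries, against 472.6 and 451.4 CPM in control libraries. RRM1, the large subunit of ribonucleotide reductase, had 88.8 and 80.9 CPM in knockdown libraries, against 139.6 and 158.5 CPM in control libraries (-0.81, SE 0.09, edgeR adjusted p = 8.11e-09). RRM2, its small S-phase subunit, had 102.0 and 93.1 CPM in knockdown libraries, against 178.5 and 146.9 CPM in control libraries (-0.74, SE 0.09, edgeR adjusted p = 1.04e-07). Both knockdown libraries lay far below both control libraries in each. Thymidine kinase (TK1) and dUTPase (DUT), which removes dUTP, fell with log2 fold changes of -0.73 and -0.56, and thymidylate synthase (TYMS) with -0.45. The RRM1:RRM2 ratio, 0.871 and 0.869 in knockdown libraries against 0.782 and 1.08 in control libraries, overlapped. TYMS shares 967 exon bases with ENOSF1 on the opposite strand, at -0.20 and not called. ENOSF1 had more reads than TYMS (a mean count of 1968 against 861.5). DUT has 8 named pseudogenes. PCNA, RPA2 and RRM2 have 3 each, and how reads shared with such copies were counted is not given in the sources used here.

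**Figure D4:**
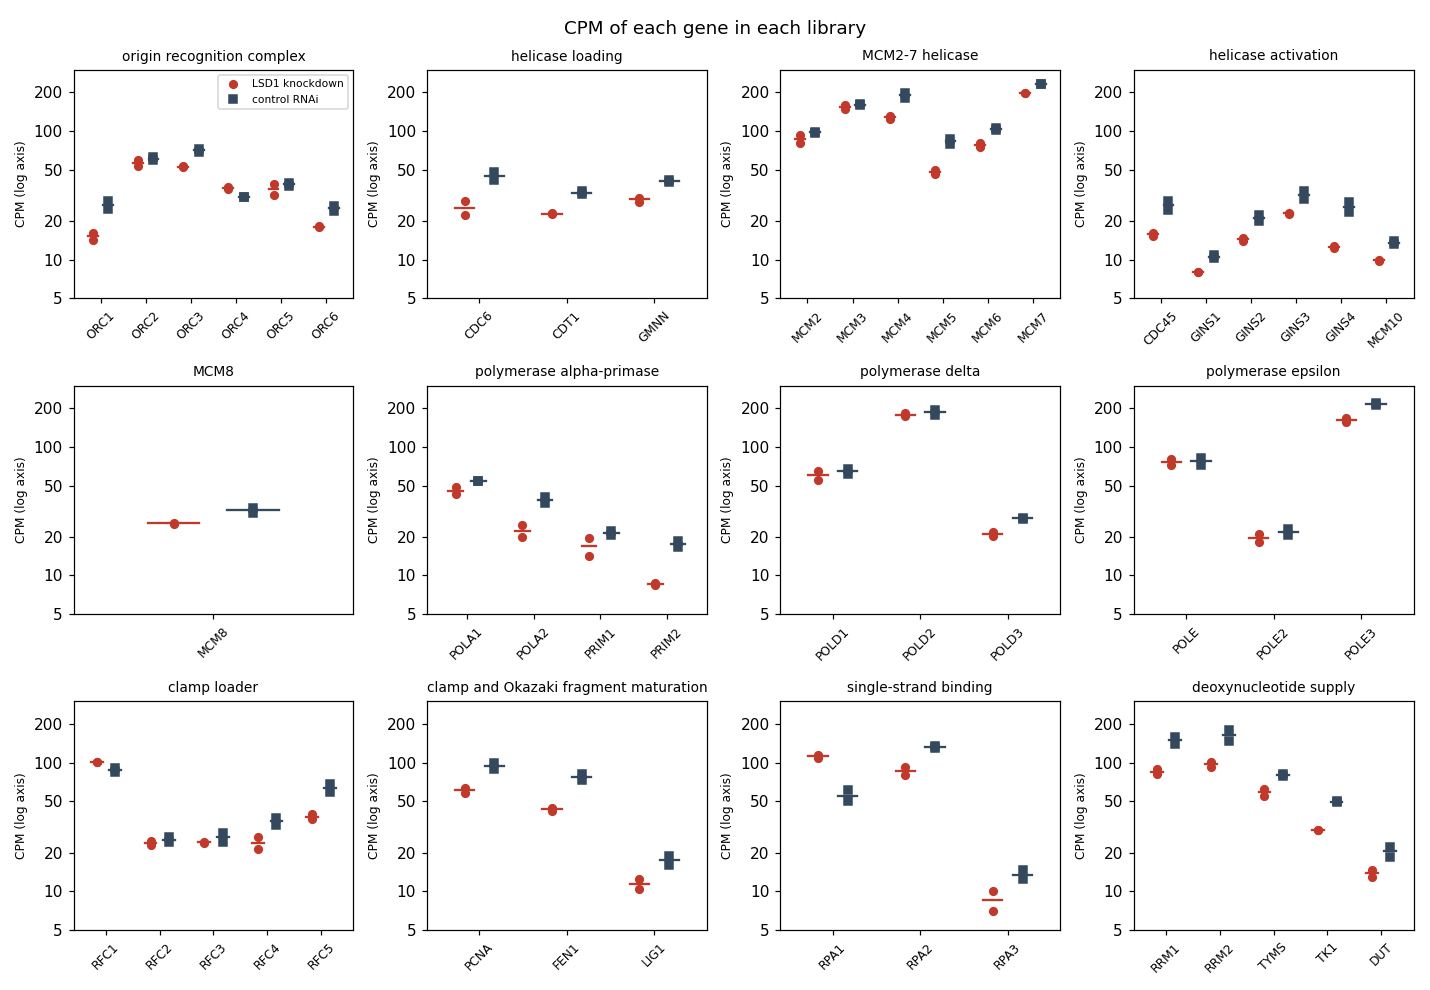
CPM (log axis) of each of the 48 genes in the 2 LSD1 knockdown libraries (circles, left) and the 2 control RNAi libraries (squares, right), 1 panel a subcomplex, with bars at the means. Knockdown points sit below control points in 37 genes and above them in ORC4, RFC1 and RPA1; RPA1 reaches 115.2 and 108.6 CPM in knockdown libraries, above 49.9 and 61.1 CPM in control libraries.

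Other genes of the same pathway were counted by list, beside the 17.9% of all tested genes that fell and the 18.2% that rose. Of 13 genes for origin firing and fork protection, 9 fell and none rose, with a median log2 fold change of -0.34. DONSON, which helps assemble the active helicase, had 9.82 and 8.27 CPM in knockdown libraries, against 17.2 and 17.1 CPM in control libraries (-0.93, edgeR adjusted p = 5.46e-06). CLSPN, the checkpoint adaptor of the fork, had a log2 fold change of -0.86 (edgeR adjusted p = 5.35e-07). All 8 genes that link PCNA to protein degradation and to chromatin copying fell (median -0.58), led by DTL at -0.77 and the histone chaperone ASF1B at -0.68. Of 12 further polymerase, clamp loader and Okazaki genes, 5 fell and 7 did not pass, with POLD4 at -0.70 and TOP2A at -0.69.

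Among 14 further deoxynucleotide genes, falls numbered 2 (14.3%) and rises 2, while 10 missed the threshold (median 0.00). These counts lie near the 17.9% that fell and the 18.2% that rose among all tested genes. SAMHD1, which degrades deoxynucleotides, had 40.4 and 43.2 CPM in knockdown libraries, against 27.9 and 26.4 CPM in control libraries (0.62, edgeR adjusted p = 1.29e-05). DTYMK, at -0.39, fell, and DHODH, at 0.46, also rose; both were named after their values were seen.

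Among 17 genes that control the G1/S step, falls numbered 5 (29.4%) and rises 3, while 9 missed the threshold (median -0.02). Over all tested genes 17.9% fell and 18.2% rose, so movement in both directions is not a feature of this list. E2F5, which is usually described as a repressor, had 35.1 and 34.4 CPM in knockdown libraries, against 12.2 and 11.03 CPM in control libraries (1.58, edgeR adjusted p = 5.33e-12). E2F1 did not pass, with 27.8 and 26.8 CPM in knockdown libraries, against 30.3 and 28.2 CPM in control libraries (-0.10). The repressor E2F7, named after its value was seen, fell (-0.94, edgeR adjusted p = 8.05e-10). Cyclin E1 (CCNE1) rose on low counts, with 19 and 25 reads in knockdown libraries, against 11 and 8 in control libraries (1.17, edgeR adjusted p = 0.0226). It lost its call without the second knockdown library or either control library (adjusted p 0.0742 to 0.188). TFDP2 rose with a log2 fold change of 0.28, a call lost without the first knockdown library or either control library (adjusted p 0.0532 to 0.12). Of 20 mitosis genes 18 fell (against 17.9% of all tested genes; median -0.46), led by CENPA at -1.02 and UBE2C at -1.002. Their median stood beside -0.47 for the replication genes.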

How the data were processed

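The authors deposited headerless tables of whole-number read counts for RefSeq transcripts, 1 table a library. They appear unnormalized, since column totals differ (22855909 to 24348184). Per the submitters' processing notes, TopHat2, HOMER, edgeR, DESeq 1.8.3 and genome build hg19 were used in roles that are not stated. How reads were assigned to transcripts, and the library kit, is not given in the sources used here. Rows were matched to symbols with a RefSeq gene table (37205 of 38767 rows) and GENCODE v29 (481). Another 1081 rows without a symbol, 1.38% to 1.40% of all counts, were dropped. Isoform rows share reads, so 7519 symbols with multiple rows were each represented by the row of highest mean count.

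Counts were normalized by TMM, filtered with filterByExpr (count 10, total 15) and tested in R 4.3.3 by edgeR 4.0.16 (quasi-likelihood) on a design of group alone. P-values were Benjamini-Hochberg adjusted over 13253 genes, with a threshold of 0.05. The biological coefficient of variation was 5.96%. CPM were computed from the counts with the TMM factors, SD is over 2 libraries, and intervals are 95%. On simulated counts of 13157 genes for this comparison, 73.1% of 67 genes changed 1.5-fold, 94.0% of 67 changed 2-fold and 100% of 66 changed 4-fold were called, and 5.32% of the 188 calls were false. The simulation gave every gene the same dispersion and changed only these genes. The data had 4788 calls, so these shares need not hold for them.

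The alternatives were DESeq2 1.42.0 as a test and for size factors, limma-voom (limma 3.58.1), no filter, no normalization factor, at least 1 CPM in 2 libraries as the filter, summed rows, a replicate block and each library left out. The members and gene lists were chosen with earlier results of these data known. Full values are given for KDM1A, the 2 genes with the largest change in each subcomplex and those that rose, and, chosen with values known, for MCM3, ORC4 and POLE; pairs for ratios and further named genes were chosen with values known. Other lists name the 2 called genes with the largest change and those called against the majority, a few of which are not reported here. Exon overlaps are from GENCODE v29: 22 of the 48 genes overlap another gene, 11 of them a counted one. Promoters are from RefSeq on GRCh38.p14, not the build of the counts.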

Additional observations from a re-analysis of the deposited data

How the results depend on the processing

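The count of replication genes that fell, 34, was 30 to 35 under the other settings with all libraries and 28 to 33 with each library left out. The median log2 fold change stayed between -0.49 and -0.42. Of the 34, 27 passed in every one of the 12 alternatives, 7 lost the call in at least 1 (MCM7, MCM8, MCM10, POLA1, POLD3, PRIM1 and RPA3) and 0 changed direction. The count that rose, 2, was 1 with DESeq2 size factors, with no filter on low counts, with the DESeq2 test and, from 1 to 1, with each library left out; RFC1 was the gene lost. With no normalization factor it was 3, as ORC4 passed (adjusted p = 0.041). With summed rows it stayed 2, but ORC4 passed (adjusted p = 0.0247) and RFC1 did not (adjusted p = 0.0645). Over all tested genes the DESeq2 test called 3181, of which 1563 rose, against 4788 and 2413 with edgeR; the cause was not tested. Signs turned only in genes that had not passed: leaving out single libraries, ORC5 ranged from -0.2854 to 0.0194 (positive without the second knockdown library), POLD1 from -0.2142 to 0.0018 (positive without the first), RFC3 from -0.2502 to 0.0032 (positive without the first control library) and POLE from -0.1119 to 0.0844 (positive without the first knockdown, 0.0541, or second control library). POLE was at 0.0208 with no normalization factor. With the replicate block, 35 genes fell and 2 rose, and GINS1 passed (-0.39, edgeR adjusted p = 0.0399). It called 5271 of all tested genes. The correlation of same-numbered libraries' deviations was 0.0793. The labels do not say whether same-numbered libraries were prepared together, so the block pairs them by number alone.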

Other observations

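Among 8 genes that copy mitochondrial DNA, falls numbered 2 and rises 2, while 4 missed the threshold (median log2 fold change -0.03), on a list added after values for the 48 replication genes had been seen. These counts lie near the shares over all tested genes, 17.9% lower and 18.2% higher. PRIMPOL, a primase that restarts stalled forks, had 2.62 and 2.09 CPM in LSD1 knockdown libraries, against 5.64 and 5.02 CPM in control RNAi libraries (-1.18, SE 0.24, edgeR adjusted p = 0.000255). MGME1, an exonuclease of mitochondrial DNA, fell (-0.44, edgeR adjusted p = 0.00283), but missed the threshold without the second knockdown library (adjusted p = 0.072). The helicase TWNK and the polymerase accessory subunit POLG2 rose, each with a log2 fold change of 0.30.

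Of 10 translesion and repair polymerases, from a list added in the same way, rises numbered 3 and falls 2, while 5 missed the threshold (median 0.13), against 18.2% higher and 17.9% lower over all tested genes. REV3L, the catalytic subunit of polymerase zeta, had 54.5 and 51.2 CPM in knockdown libraries, against 33.8 and 37.3 CPM in control libraries (0.57, SE 0.10, edgeR adjusted p = 1.93e-05). POLI (0.61) and POLL (0.34) rose as well, while POLQ (-0.57) and POLM (-0.52) fell.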
